A study of Mus musculus with 12 samples.

Results

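The 2 peak lists compared here are those of Ctr9 and of RNA polymerase II phosphorylated at serine 2 (RNAPII Ser2p) in mouse embryonic stem cells (mESCs). All peaks of both lists were taken, 44748 for Ctr9 and 1675 for RNAPII Ser2p, which is 46423 of the 128567 peaks in the 7 lists of the series. Each list came from 1 ChIP-seq library, and each of the other lists used below did as well. ChIP-seq sequences the DNA that an antibody pulls down, and a peak is a stretch with more fragments than the background, here at a q-value cutoff of 0.01. The mESCs were of the E14 line, grown with LIF and serum. For Ctr9, the protein carried GFP at its C-terminus, inserted at the gene itself by CRISPR/Cas9, and was pulled down with an antibody to GFP from a sorted pool of GFP-positive cells rather than from a clone. In NIH3T3 fibroblasts, whose Ctr9 list is used further below, Ctr9 was tagged with GFP and pulled down in the same way. For RNAPII Ser2p, the antibody ab5095 was used. The labels give E14 cells and do not say whether these carried a tag, so whether both lists come from cells of the same genotype is not known. With no replicate of either target, no difference below has a test. Intervals in percent are exact 95% binomial intervals, intervals of medians come from order statistics at the same level, and both cover counting error only.

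Ctr9 is a subunit of the Paf1 complex, which travels with elongating RNAPII and is needed for several histone marks of transcribed genes. Serine 2 of the RNAPII C-terminal repeat is phosphorylated during elongation by CDK9, the kinase of P-TEFb, and by CDK12 and CDK13. The mark is low near gene starts and accumulates towards gene ends, where cleavage and polyadenylation factors bind it. Pausing near the start is instead associated with serine 5 phosphorylation and with NELF, whose subunit NELFA was also measured, through a GFP tag in E14 cells. The Ser5p library was made from NELFA-tagged cells as the study describes it. Whether Ctr9 lies where RNAPII Ser2p lies was the question addressed by comparing these lists.

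The cells carried the markers of their label. In the 1 mESC RNA-seq library, Pou5f1 was at 1402 TPM, a transcript level scaled for length and library size, Sox2 at 364, Nanog at 281, Esrrb at 211 and Zfp42 at 286, against 0 to 0.511 in NIH3T3 fibroblasts. The fibroblast genes Col1a1, Col1a2, Col3a1 and Col5a1 were at 0 to 2.38 TPM in mESCs and had no Ctr9 or Ser2p peak. Fn1, at 75.7 TPM, had 47 Ctr9 peaks and no Ser2p peak.

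Sequences are shown for 4 strong joint peaks, at which both summits fall within 100 bps of each other and outside annotated exons, and for 1 Ser2p peak that no Ctr9 peak met. A summit is the base with the most fragments in a peak. Sequences are of GRCm38 (mm10), on the strand of the gene. Capitals mark the stretch from one summit to the other, and in the last window the 10 bases on each side of the Ser2p summit. The windows are chr15:80076282-80076485 past the end of Rpl3, chr3:137867466-137867600 between H2afz and Dnajb14, chr7:127027363-127027483 past the end of Kif22, chr11:100322688-100322868 past the end of Eif1, and chr14:67032035-67032155 in Ppp2r2a (plus strand shown).
Rpl3: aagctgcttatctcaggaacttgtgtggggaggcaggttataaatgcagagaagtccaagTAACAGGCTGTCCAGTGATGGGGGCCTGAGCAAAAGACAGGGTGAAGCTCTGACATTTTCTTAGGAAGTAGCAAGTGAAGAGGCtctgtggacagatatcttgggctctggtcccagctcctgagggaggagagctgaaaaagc
H2afz: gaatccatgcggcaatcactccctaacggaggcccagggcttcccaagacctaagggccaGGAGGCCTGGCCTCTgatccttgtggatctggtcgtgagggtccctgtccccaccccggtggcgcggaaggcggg
Kif22: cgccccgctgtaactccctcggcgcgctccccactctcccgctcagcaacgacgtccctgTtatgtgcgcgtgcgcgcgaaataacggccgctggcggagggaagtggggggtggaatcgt
Eif1: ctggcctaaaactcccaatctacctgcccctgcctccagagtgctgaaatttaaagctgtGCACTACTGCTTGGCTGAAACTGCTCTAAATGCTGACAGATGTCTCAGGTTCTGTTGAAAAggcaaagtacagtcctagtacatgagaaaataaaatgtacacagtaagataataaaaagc
Ppp2r2a: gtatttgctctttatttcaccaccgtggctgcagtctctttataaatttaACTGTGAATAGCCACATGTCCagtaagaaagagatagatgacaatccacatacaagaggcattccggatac
At Rpl3, which encodes a protein of the large ribosomal subunit, the Ser2p peak had a fold enrichment of 23.4 and the Ctr9 peak of 34.9, and the Ser2p summit lay 1366 bps past the gene end, 83 bps upstream of the Ctr9 summit. At H2afz, the gene of histone H2A.Z, the summits were 14 bps apart, 618 bps past its end and just upstream of the start of Dnajb14. At Kif22, the gene of a mitotic kinesin, both summits fell on the same base, 306 bps past its end and upstream of the neighbouring gene Maz. At Eif1, which encodes a translation initiation factor, they were 60 bps apart and 652 bps past the gene end.

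RNAPII Ser2p peaks lay almost without exception on Ctr9 peaks, whereas few Ctr9 peaks carried Ser2p. On the assembled chromosomes, 1670 of 1673 Ser2p peaks (99.8%, 99.5 to 100.0) met a Ctr9 peak by at least 1 bp. In all, 1665 Ser2p summits were inside a Ctr9 peak and 1650 Ser2p peaks (98.6%) were wholly inside. By bases, 99.8% of the 1.13 Mb of Ser2p peaks fell in Ctr9 peaks, which covered 1.20% of the genome. In the reverse direction, 1071 of 44738 Ctr9 peaks met a Ser2p peak, that is 2.39% (2.25 to 2.54). These 1071 peaks held 14.7% of the bases under Ctr9 peaks, and Ser2p covered 23.4% of their length. Both shares depend on the wide Ctr9 peaks. With Ctr9 peaks of 5 kb or more left out, so that Ser2p peaks inside them no longer count, 53.3% of Ser2p peaks met a Ctr9 peak. With at least 50% of the Ctr9 peak covered, the reverse share was 0.226%.

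The share on Ctr9 was higher for Ser2p than for the other mESC lists. Of the RNAPII Ser5p peaks, 77.1% (75.9 to 78.3) met a Ctr9 peak, of the NELFA peaks 43.2% (41.0 to 45.4), and of the peaks of H3K27ac, a histone mark of active promoters and enhancers, 23.2% (22.6 to 23.8). The lists differ in length, so the 1673 peaks with the best q-value were also taken from each. Their shares on Ctr9 were 89.1% for Ser5p, 44.7% for NELFA and 43.5% for H3K27ac. The Ser2p interval did not overlap any of these.

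The 3 Ser2p peaks off Ctr9 were weak and lay near Ctr9 peaks. That in Ppp2r2a, which encodes a regulatory subunit of the phosphatase PP2A, spans chr14:67032050-67032253 and had a fold of 3.45, with a Ctr9 peak 152 bps away. That in Eps15l1, an endocytosis adaptor gene, spans chr8:72365829-72366076 and had a fold of 3.65, with a Ctr9 peak 488 bps away. The peak chr7:25237870-25238287, had its summit 196 bps upstream of the start of Gsk3a (-196 from the start), a kinase gene, with a fold of 3.85 and a Ctr9 peak 825 bps away. None of these 3 met a Ser5p, NELFA or H3K27ac peak. The Ser2p peaks on Ctr9 had a median fold of 4.79 (quartiles 4.06 and 5.93, n = 1670).

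Ctr9 peaks with Ser2p were the strong and wide ones. Fold enrichment is the number of fragments at the summit over the local background as macs2 reports it. The 1071 Ctr9 peaks with Ser2p had a median fold of 12.5 (quartiles 9.08 and 17.4), and the 43667 without had a median of 3.71 (3.20 and 4.38). Their median widths were 3681 and 383 bps. Among the 185 Ctr9 peaks with a fold of at least 20, 182 carried Ser2p (98.4%, 95.3 to 99.7), and all 74 with a fold of at least 25 did. At a fold of at least 10 the share was 65.5% (737 of 1125). Among the weakest 80% of Ctr9 peaks it was 0.0447% (16 of 35790).

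**Figure D1:**
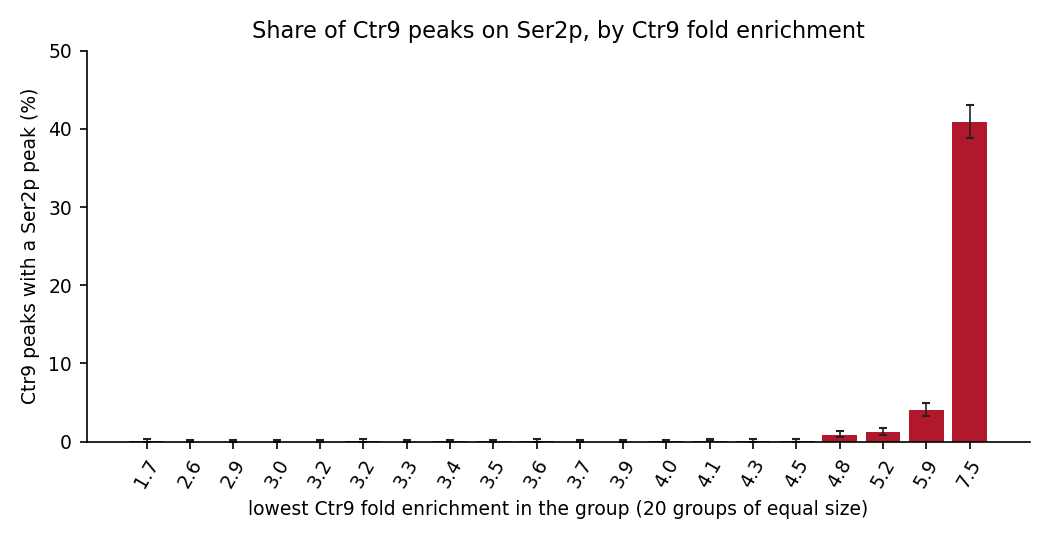
Share of Ctr9 peaks that met a Ser2p peak (%), for the 44738 Ctr9 peaks of mESCs ordered by fold enrichment and cut into 20 groups of equal size, with exact 95% binomial intervals. In the top group, from a fold of 7.52, the share was 40.9%, in the next group 4.07%, and in the 16 lowest groups at most 0.134%.

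The gap in fold was also seen among peaks of like width. A wide peak has more room to meet a Ser2p peak, and the share with Ser2p went from 0.0253% of Ctr9 peaks of 200 to 499 bps to 67.2% (63.0 to 71.2) of those of 5000 bps or more. Within each width class the fold was still higher with Ser2p. For peaks of 1000 to 1999 bps the medians were 10.5 with Ser2p (n = 205) and 5.11 without (n = 4481). For 5000 bps or more they were 14.9 (n = 348) and 8.50 (n = 170). The smallest gap was in the narrowest class, 4.02 against 3.46, with 7 peaks with Ser2p. The gap was also present in every position class, with medians of 10.5 to 13.4 with Ser2p and of 3.58 to 3.95 without.

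**Figure D2:**
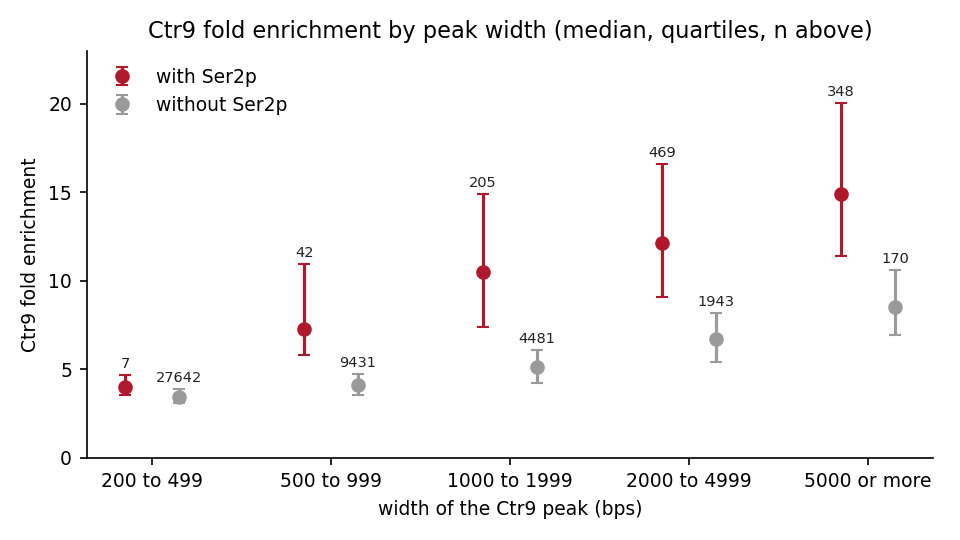
Median Ctr9 fold enrichment (y axis, with quartiles as bars) by width of the Ctr9 peak in bps (x axis), for peaks with Ser2p in red and without in grey, with the number of peaks above each bar. The red median is above the grey one in all 5 classes, and the quartile ranges do not overlap from 500 bps up.

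The strength of Ser2p itself varied less. Over the 1670 joint Ser2p peaks, the fold of Ser2p and that of the strongest Ctr9 peak met had a Spearman correlation of 0.335 and a Pearson correlation of 0.396 on log2 values. Neighbouring Ser2p peaks share a Ctr9 peak, so these points are not independent. The median Ser2p fold was 4.48 in the fifth of peaks with the weakest Ctr9 (2.52 to 9.09) and 6.42 in the fifth with the strongest (20.0 to 52.3). The highest values of both lists fell on the same peak, chr7:3218629-3223607, with a Ser2p fold of 27.6 and a Ctr9 fold of 52.3. It lies in the annotated body of Nlrp12, a gene at 0.0366 TPM, and spans the microRNA genes of the Mir290 cluster, which is specific to early embryonic cells.

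Several Ser2p peaks often shared 1 Ctr9 peak. Of the 1071 Ctr9 peaks with Ser2p, 717 held 1 Ser2p peak, 209 held 2, 84 held 3 and 61 held 4 or more. The 354 with at least 2 held 57.2% of the joint Ser2p peaks. Most, 10 each, lay in a Ctr9 peak of 24793 bps at the long noncoding RNA gene Lncenc1 (chr13:97482742-97507534, Ctr9 fold 39.4) and in one of 22586 bps in Esrrb, a pluripotency factor gene (chr12:86501568-86524153, 11.9). Slc2a3, the gene of the glucose transporter GLUT3, had 9 in a Ctr9 peak of 16278 bps. At Zfp42 (Rex1), 2 adjoining Ctr9 peaks with folds of 13.7 and 30.1 held 8 Ser2p peaks, from 1294 to 19105 bps downstream of the gene start.

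Most joint summits lay at gene ends, past them or at starts, and most Ctr9 summits without Ser2p lay in gene bodies. Of the Ser2p summits, 27.3% (25.1 to 29.5) were within 1 kb of the end of a protein-coding gene and a further 26.4% (24.3 to 28.6) were 1 to 5 kb past it. These stretches are 1.43% and 2.72% of the genome. Gene starts, again within 1 kb, took 21.2% (19.2 to 23.2), bodies 16.3% and the rest of the genome 8.91%. A summit near a start and an end was counted at the start. The 1071 Ctr9 summits with Ser2p had a like distribution, 29.1% at ends, 23.4% past ends, 26.98% at starts and 12.8% in bodies. The 43667 without Ser2p were at 12.2%, 19.01%, 5.52% and 52.6%. Against an even spread over the genome, those without Ser2p were still 8.52 times as frequent at ends, 6.999 times past ends and 3.64 times at starts, and 1.47 times in bodies, which hold 35.8% of the genome. For the joint Ctr9 summits these values were 20.4, 8.63, 17.8 and 0.357. Of the RNAPII Ser5p summits, 38.0% were at starts and 10.7% at ends.

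**Figure D3:**
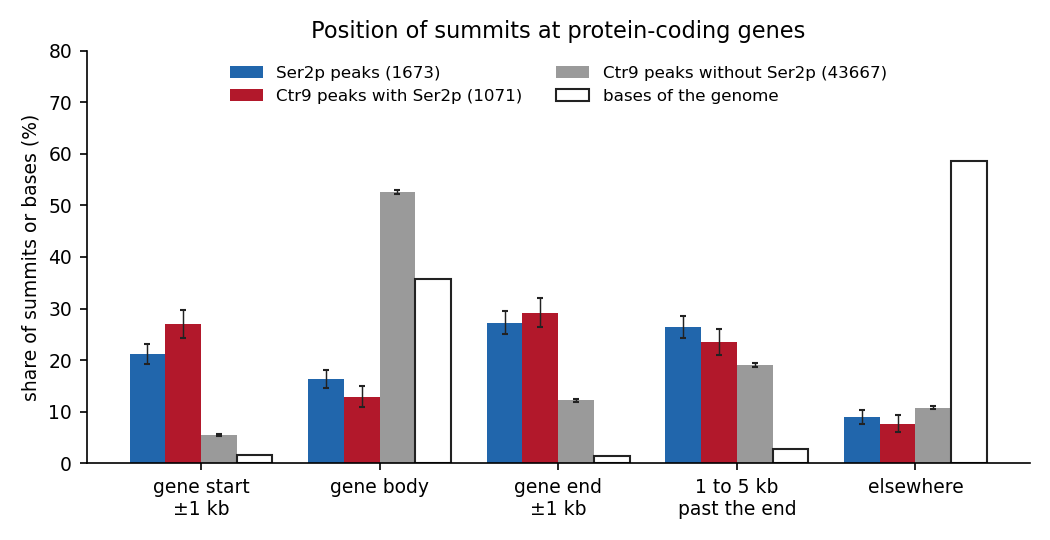
Share of summits (%) at protein-coding gene starts, bodies, ends, past ends and elsewhere, for Ser2p peaks (blue), Ctr9 peaks with Ser2p (red) and Ctr9 peaks without (grey), with exact 95% binomial intervals, beside the share of genome bases in each class (white). Gene bodies hold 52.6% of the grey summits and 12.8% of the red ones, and gene ends 12.2% and 29.1%.

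Along the gene, Ser2p summits showed no clear average shift from the nearest Ctr9 summit. For 984 Ser2p peaks at protein-coding genes of a single strand, 870 had a Ctr9 summit within 2000 bps. The Ser2p summit minus the nearest Ctr9 summit, counted positive downstream, had a median of -6 bps (-20 to 3) with quartiles of -209 and 208. The Ser2p summit was the downstream one in 414 pairs (47.6%, 44.2 to 51.0), and 280 pairs (32.2%) were within 100 bps. Regardless of direction, the median distance was 208.5 bps, and 4 pairs fell on the same base. A Ctr9 summit can be paired with several Ser2p summits, so the pairs are not independent. By position, the median was -16 bps at starts (-32 to 1), -39 in bodies (-110 to 4), -45 at ends (-94 to -8) and 60 past ends (25 to 128). The classes are set by the place of the Ser2p summit itself, which favours negative values near the end and positive ones past it, so nothing is read from the change of sign.

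**Figure D4:**
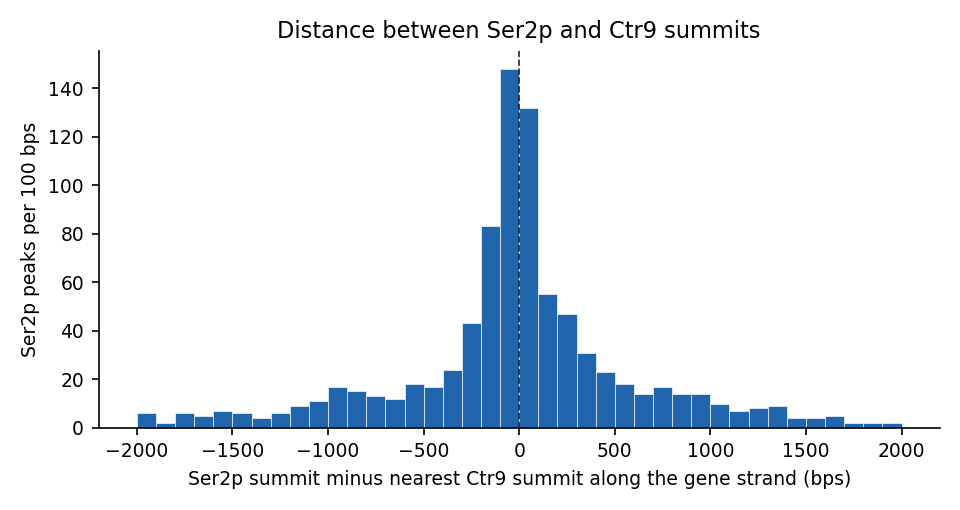
Number of Ser2p peaks (y axis) by distance of their summit from the nearest Ctr9 summit along the gene strand, in steps of 100 bps (x axis, positive where Ser2p is downstream), for 870 peaks. The counts are highest on both sides of 0, with 148 peaks from -100 to 0 bps and 132 from 0 to 100 bps.

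The reach of Ctr9 peaks was measured from the Ser2p summits inside them to the Ctr9 edges, so both distances are positive by construction. For 977 Ser2p summits in a Ctr9 peak, the Ctr9 peak extended a median of 2148 bps upstream (2011 to 2274) and 1712 bps downstream (1582 to 1800). A Ctr9 peak with several Ser2p summits was counted once for each. The downstream side was the longer in 43.5% (40.4 to 46.7). For Ctr9 peaks with a single Ser2p peak the medians were 1389 and 1000 bps. Of 384 genes alone at their strongest Ser2p peak, 341 (88.8%) had that peak on their strongest Ctr9 peak. The strongest Ser2p summit lay a median of 548 bps past the gene end (383 to 686) and the strongest Ctr9 summit 642 bps past it (496 to 765). Within the same genes the difference between these summits had a median of -0.5 bps (-20 to 27), and Ser2p was downstream in 49.5%.

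**Figure D5:**
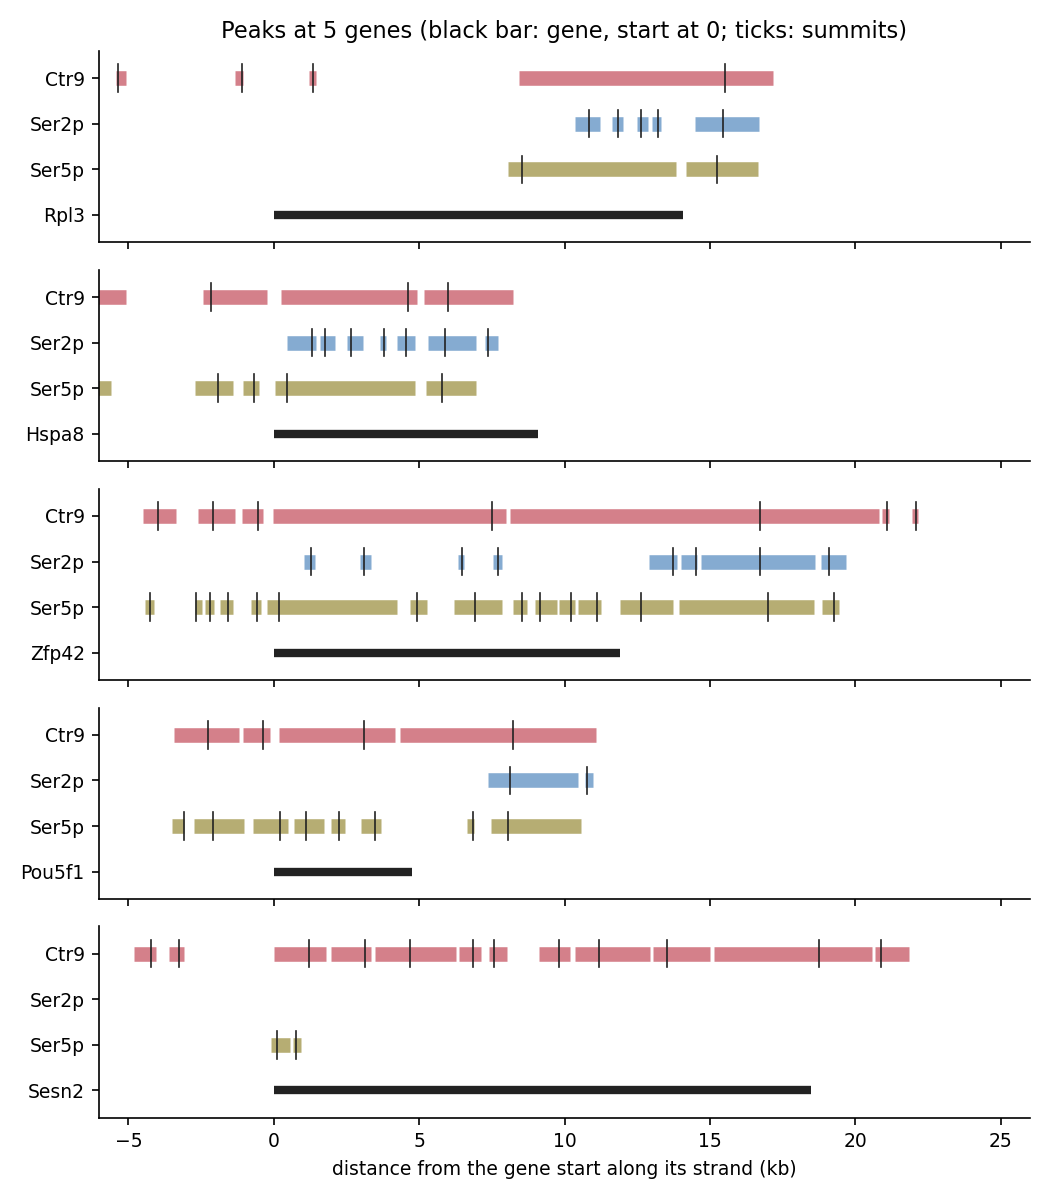
Ctr9 (red), Ser2p (blue) and Ser5p (olive) peaks at 5 genes, with summits as ticks, against the distance from the gene start along its strand in kb, and the gene as a black bar (other genes are not drawn). Ser2p peaks sit inside Ctr9 peaks at Rpl3, Hspa8, Zfp42 and Pou5f1, and Sesn2 has 10 Ctr9 peaks in its region, up to 21837 bps from its start, and no Ser2p peak.

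The gene map gave 1539 protein-coding genes with Ser2p in the body, 1 kb upstream or 5 kb downstream, 7.02% of 21938. Ctr9 was found at 9679 genes (44.1%), and all 1539 genes with Ser2p were among them, which follows largely from the overlap of the peaks. Thus 15.9% of the genes with Ctr9 also had Ser2p and 8140 had Ctr9 alone. Genes lie close together and a peak can count for several. Of the 1673 Ser2p peaks, 737 were at exactly 1 protein-coding gene, and 419 genes had such a peak. The strongest were at Nlrp12 (27.6), at Rpl3 (23.4), at H2afz with Dnajb14 (21.7), at Ftl1 with Gys1 and Bax (21.1), at Rpl41 with Zc3h10 (20.9) and at Cyb5r1 (20.1). Ftl1 encodes ferritin light chain, Rpl41 a ribosomal protein and Gys1 glycogen synthase.

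The mRNA level was higher where Ser2p joined Ctr9. The median TPM of the most abundant transcript was 29.5 (25.7 to 33.3) for genes with both, 12.8 (12.3 to 13.2) for genes with Ctr9 alone and 0.0397 for genes with neither. For the 418 measured genes alone at a Ser2p peak it was 70.6 (57.1 to 82.7). In bulk RNA, fewer expressing cells and less RNA per cell cannot be told apart. Of the 98 Ctr9 genes at 1000 TPM or more, 93 had Ser2p (94.9%, 88.5 to 98.3), of the 760 between 100 and 1000 TPM 36.8%, of the 4786 between 10 and 100 TPM 14.5%, and of the 2622 between 1 and 10 TPM 11.1%. At 0 TPM and between 0 and 1 TPM the share was 12.5% in both, so that it differed little below 100 TPM. These shares include peaks that also lie at a neighbouring gene. Counting only Ser2p peaks at exactly 1 protein-coding gene, the share was 0.532% at 0 TPM and 1.67% between 0 and 1 TPM. It was 1.56% from 1 to 10 TPM, 3.84% from 10 to 100, 17.2% from 100 to 1000 and 43.9% from 1000 TPM. Replication-dependent histone genes with Ser2p had a median of 1.03 TPM, so some of the genes with Ser2p at low TPM are histone genes. At 100 to 1000 TPM, the strongest Ctr9 peak had a median fold of 13.9 at genes with Ser2p and of 6.53 at genes without.

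The 5 Ctr9 genes above 1000 TPM without Ser2p were Ftl1-ps1 (2335 TPM), Rpl22 (1765), Eno1b (1527), Gm2000 (1338) and Mif (1138). Ftl1-ps1 is a copy of Ftl1, which stood at 4.35 TPM in mESCs and at 1965 in NIH3T3, where the copy was at 5.54, so reads may be divided between such copies. Eno1b and Gm2000 each had 1 narrow Ctr9 peak, of 200 and 258 bps, with folds of 3.51 and 4.06. Whether their reads are also divided between copies was not tested. Rpl22 had 7 Ctr9 peaks with a fold of up to 13.3.

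The gene lists differed widely in their share with Ser2p. All these shares are to be read against 15.9% of Ctr9 genes, and also against the share at a like mRNA level. That share was 14.5% of Ctr9 genes between 10 and 100 TPM, 36.8% between 100 and 1000 TPM and 94.9% from 1000 TPM. Of 85 cytosolic ribosomal protein genes, 82 had Ctr9 and 79 Ser2p (96.3% of those with Ctr9), with a median of 1593 TPM. Of these 79, 32 had a Ser2p peak at no other protein-coding gene. Rpl22, Rps13 and Rps27l had Ctr9 without Ser2p in their region, and Rpl10l, Rpl39l and Rpl3l had neither. The strongest Ctr9 peak of Rps13 (17.2) met a Ser2p peak that lay just outside the gene region. Of 27 SR and hnRNP splicing factor genes, all had Ctr9 and 20 had Ser2p (74.1%), 11 of them with a peak at no other protein-coding gene. Hnrnpa2b1 had the highest Ser2p fold among them, 18.3, at a summit 1265 bps past the gene end and 7 bps from the Ctr9 summit. Hnrnph1, with a Ctr9 fold of 15.9 at 127 TPM, had none.

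Pluripotency genes had Ser2p at 14 of 20, with Ctr9 at 19, and 12 had a Ser2p peak at no other protein-coding gene. Esrrb carried 15 Ser2p peaks, Zfp42 7, Tdgf1 6 and Sox2 and Klf2 4 each in their gene regions. At Pou5f1 (Oct4) the Ser2p fold was 11.6 and the Ctr9 fold 16.5, with summits 84 bps apart and 3382 bps past the gene end for Ser2p. This Ser2p peak met the regions of 3 protein-coding genes, so it cannot be assigned to Pou5f1 alone. No Ser2p peak lay in the Pou5f1 body. At Nanog the folds were 8.20 and 13.1, 119 bps apart. Lin28a, at 155 TPM with 8 Ctr9 peaks of up to 12.7, Klf4 (89.7 TPM, Ctr9 fold 9.17), Nr0b1, Nr5a2 and Prdm14 had Ctr9 without Ser2p. Dppa3 had neither.

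Glycolysis genes had Ser2p at 9 of the 14 with Ctr9, chaperone genes at 10 of 21 and cytoskeleton genes at 9 of 14. In each of these lists, 4 genes had a Ser2p peak at no other protein-coding gene. Gapdh had a Ser2p fold of 14.97 and a Ctr9 fold of 31.0 with summits 9 bps apart. Hspa8, the constitutive HSP70 gene, had 7 Ser2p peaks and folds of 15.2 and 39.1, within its body. Actb had folds of 11.1 and 33.1, at 648 and 771 bps past its end. Pgk1, at 712 TPM, had a Ctr9 fold of 6.58 and no Ser2p peak. Of 67 replication-dependent histone genes, 45 had Ctr9 and 40 Ser2p, with a median level of 0.729 TPM over the 67. They are tightly clustered and their 40 calls rest on 24 distinct strongest Ser2p peaks.

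Of 30 genes of Paf1C, P-TEFb, CDK12 and other elongation factors, 29 had Ctr9 and 3 had Ser2p (10.3% of those with Ctr9), at Cdk13, Supt16 and Ell, with folds of 5.13, 4.78 and 4.49. Their median level was 45.0 TPM. Ctr9 itself had 2 Ctr9 peaks with a fold of up to 5.56, and no Ser2p peak. Of 23 cleavage, polyadenylation and termination factor genes, 22 had Ctr9 and 5 Ser2p, at Pcf11, Scaf4, Pabpn1, Pabpc1 and Wdr33. Of 19 immediate early genes 13 had Ctr9, and Ier2 (14.2) and Junb (6.28) had Ser2p. Of 15 fibroblast matrix genes, Fn1 and Sparc had Ctr9 and none had Ser2p.

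Strong Ctr9 peaks without Ser2p formed a short list. The 3 with a fold of at least 20 were at the histone gene Hist1h4k (chr13:21749100-21750599, 22.6), at the end of Sesn2 (chr4:132489932-132495362, 22.4) and at an intergenic stretch, chr11:33534671-33539833 (22.1). The nearest Ser2p summit was 3036 bps away at Hist1h4k, where neighbouring histone genes carry Ser2p, but 138276 bps away at Sesn2. Next came Egr1 (19.7), an immediate early gene, Chac1 (19.6) and 4 further histone genes of the same chromosome (18.8 to 19.4), followed by Nars (18.7). Sesn2, Chac1, Nars and Pck2 (15.9) are known targets of the stress factor ATF4. This was noticed after the values were seen, and a list of 24 known ATF4 targets was then drawn up. The list includes those 4 genes, so its values partly restate how it was chosen. Of its members, 21 had Ctr9 and 5 of these had Ser2p (23.8%, against 15.9% of all Ctr9 genes), which were Asns, Sars, Aars, Slc3a2 and Eif4ebp1. Sesn2 stood at 39.1 TPM, Chac1 at 5.37, Pck2 at 6.48 and Nars at 224.

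Genes with the strongest Ctr9 peak in their region and no Ser2p were for the most part neighbours of others. At Cep95 (34.4), H2afv (33.5), Slc25a38 (33.3), Zwilch (32.7), Znfx1, Vps52, Slc34a3, Lrsam1 and Hist1h2bh the strongest Ctr9 peak met a Ser2p peak that lay outside the gene region. Hist1h4k was the exception among these 10.

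Outside the regions of protein-coding genes there were 145 Ser2p peaks, 88 of them at other annotated genes. Lncenc1 had 9, Malat1 5 and Dleu2 4. The snoRNA host 1110038B12Rik had the highest Ser2p fold, 17.3, with a Ctr9 fold of 20.2. Lncenc1 followed at 16.2 (Ctr9 39.4), then an unannotated stretch on chromosome 16, chr16:25522718-25526247, at 15.4 (Ctr9 43.2), Zfas1 at 13.7 (Ctr9 28.4), a second unannotated stretch, chr6:124477019-124480152, at 12.4 (Ctr9 34.1) and Neat1 at 12.2 (Ctr9 27.4). The remaining 57 peaks met no annotated gene region. Some of them lie just past the 5 kb limit of a protein-coding gene, inside a Ctr9 peak that reaches into its region. One such peak, chr8:43287302-43288175 (Ser2p fold 6.67, Ctr9 30.1), is among those counted at Zfp42 above.

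At super enhancers (SEs), long clusters of enhancers near cell identity genes, called Ser2p peaks were present at a minority. Of the mESC SE intervals in the study's list, 176 met a Ctr9 peak and 22 (9.52%, 6.07 to 14.1) a Ser2p peak. All 22 also had Ctr9, and of the 55 without Ctr9 none had Ser2p, which allows a share of up to 6.49%. As 1670 of 1673 Ser2p peaks met Ctr9 genome-wide, this largely restates that overlap. The strongest Ctr9 peak had a median fold of 12.3 (9.35 to 13.7) at the 22 SEs with both and of 5.96 (5.26 to 6.68) at the 154 with Ctr9 alone. The SEs with both were also longer, with a median of 12298.5 bps against 8744 bps, and the part of length was not tested. Ser5p was at all 22 and at 118 of the 154 (76.6%). H3K27ac was at 20 of 22 and at 142 of 154 (92.2%). Of the 37 Ser2p peaks on SEs, 33 also lay in a protein-coding gene region, so that most cannot be told apart from peaks of the gene. The highest Ser2p folds were at the SEs of Neat1 (12.2), Mcl1 (8.17) and Dppa5a (6.84), and the SE at Sox2 held 3 Ser2p peaks.

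Joint peaks were also richer in the other marks. RNAPII Ser5p met 69.1% of the Ctr9 peaks with Ser2p and 4.04% of those without, NELFA 26.2% and 1.22%, and H3K27ac 50.0% and 8.30%. Among Ctr9 peaks of 5000 bps or more, the Ser5p shares were 79.6% (74.98 to 83.7) and 33.5% (26.5 to 41.2). None of these 3 marks met 256 of the 1071 (23.9%). Past gene ends, 49.1% of Ser2p peaks met a Ser5p peak, against 69.5% at starts, 68.0% at ends, 62.9% in bodies and 69.1% elsewhere.

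Joint peaks were more often found in the other cell line as well. A Ctr9 peak of NIH3T3 cells met 60.8% (57.8 to 63.7) of the mESC Ctr9 peaks with Ser2p and 16.7% (16.4 to 17.1) of those without. At 5000 bps or more, these shares were 72.7% (67.7 to 77.3) and 61.8% (54.0 to 69.1), and the intervals overlapped. The 420 joint peaks with no NIH3T3 Ctr9 peak had a median Ctr9 fold of 10.8, against 13.8 for the 651 others. Of the 432 coding genes they met, 111 (25.7%) were at least 4-fold higher in mESCs by TPM + 1, against 54 of 836 (6.46%) at the others. RNAPII Ser2p was not measured in NIH3T3 cells.

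Base composition at summits differed between positions and between groups. In windows of 300 bps, the median GC content was 50.3% at Ser2p summits, 52.7% at Ctr9 summits with Ser2p and 48.7% at those without. At gene starts it was 62.0% in both joint groups and 56.0% without Ser2p, and at ends 49.7%, 51.7% and 49.3%. The hexamer AATAAA, the main polyadenylation signal, was searched on both strands. It was in 20.7% (18.8 to 22.7) of Ser2p windows, in 14.1% (12.1 to 16.3) of windows of Ctr9 peaks with Ser2p and in 21.03% (20.6 to 21.4) of those without. At gene ends these shares were 25.9%, 16.7% and 22.2%. At summits away from protein-coding genes they were 30.9% (23.6 to 39.0), 24.4% (15.6 to 35.1) and 23.6% (22.4 to 24.9). In each group this interval overlapped the one at ends. The share of windows with AATAAA over the whole genome is not given here, so no excess is read from these values. Of the windows printed above, that of Eif1 holds it 2 times and that of Ppp2r2a 1 time.

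Some limits touch all of these counts. The peak lists give no read totals, so the depth of the ChIP-seq libraries is unknown, and a Ctr9 peak without Ser2p is one at which Ser2p did not pass the cutoff. Strong Ctr9 peaks, Ser5p, mRNA level and Ser2p moved together, and their parts in each other were not tested.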

How the data were processed

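Peak lists of 7 ChIP-seq libraries and 2 RNA-seq tables were analysed. Per the methods of the study, the authors aligned reads to mm10 with Bowtie2 2.3.5.1, left out reads in blacklisted regions and ran macs2 2.2.6 on 1 library per target (q-value cutoff 0.01). The deposited lists give a fold enrichment (a ratio to the local background), −log10 p and −log10 q values and a score of 10 times −log10 q. RNA was quantified by the authors with kallisto 0.46.1 against GENCODE M19 and deposited as TPM and estimated counts, which sum to 26400407 in mESCs and 28849497 in NIH3T3. Files for the 3 input libraries were not used here. Which input served which list is not given in the sources used here.

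Peaks on assembled chromosomes were kept, which left out 10 Ctr9 and 2 Ser2p peaks. Overlaps of at least 1 bp, distances and medians came from scripts in Python 3.11.15 using SciPy 1.17.1, NumPy 2.4.6 and pandas 2.3.3. Plots used Matplotlib 3.10.9. The code was checked on simulated intervals. Genes were those of GENCODE M21, 21938 of them protein-coding, and sequences came from the RefSeq copy of GRCm38. SE intervals were taken from the study's list. Named genes were the 10 with the highest Ser2p fold, the 10 with most Ser2p peaks, the 10 with the strongest Ctr9 and no Ser2p, the 10 with the highest TPM and Ctr9 but no Ser2p, the Ser2p peaks off Ctr9, members of the gene lists with Ser2p and genes the study names. List members without Ser2p, members of the ATF4 list, strong Ctr9 peaks without Ser2p and noncoding loci were chosen after their values were seen. The members and lists were chosen with earlier results of these data known. Windows printed as sequence were chosen among the strongest joint summits within 100 bps of each other. Alternatives were another q-value threshold, overlap rule, width limit, distance window, gene region and TPM summary.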

Additional observations from a re-analysis of the deposited data

How the results depend on the processing

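No paired analysis was possible because each target had 1 library and no test was made. Of 85 alternative values for 32 results, 41 stayed within the interval of the value given, or within 1.5 times of it for counts, 44 moved and none changed sign. The share of Ser2p peaks on Ctr9 was 53.3% without the Ctr9 peaks of 5 kb or more and 89.8% against as many Ctr9 peaks as Ser2p peaks. The share of Ctr9 peaks on Ser2p was 3.03% at a −log10 q of at least 5, 1.83% with the Ctr9 summit inside, 0.226% with 50% of the Ctr9 peak covered, 1.64% without the widest peaks and 3.13% with Ser2p within 1 kb. For the Ctr9 fold with Ser2p these gave 13.2 (q), 13.8 (summit) and 11.4 (width), and the mean 14.0. Without Ser2p it was 4.06 (q) and 4.04 (mean). The Ser2p fold on Ctr9 was 5.09 (q) and 5.48 (mean). With the strongest Ctr9 summit of the gene region in place of the nearest, the offset was -44 bps. Within 500 bps in place of 1 kb, Ser2p summits were 16.02% at starts, 15.4% at ends and 40.7% past ends, and joint Ctr9 summits 21.2%, 14.6% and 40.0%. With the ends of the most abundant transcript, chosen after seeing the data, they were 24.4% at ends and 29.3% past ends for Ser2p, and 25.7% and 27.2% for joint Ctr9. The median TPM of genes with both was 48.4 (sum of transcripts), 38.8 (TPM of at least 1) and 70.6 (genes alone at a Ser2p peak, added later), and with Ctr9 alone 13.7 (q), 20.5, 16.6 and 13.4 (1 kb region). At the stricter q, Ctr9 peaks without Ser2p met Ser5p in 4.73%, NELFA in 1.49%, H3K27ac in 9.60% and NIH3T3 Ctr9 in 16.05%, with a GC content of 49.0% and AATAAA in 20.4%. In windows of 100 bps, AATAAA was in 7.35% of Ser2p, 4.20% of joint Ctr9 and 6.29% of other Ctr9 summits, and the GC content of the Ctr9 groups was 54.0% and 50.0%. Genes with a Ser2p peak numbered 1258 to 1539 and SEs with one 18 to 22 over all settings. Single libraries without known depth limit all shares.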
